A study of Mus musculus with 5 samples.

Results

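The regions described here are the promoters of protein-coding genes that carried a peak of histone acetylation in every one of 5 ChIPseq libraries of memory-type (T_M) CD8 T cells from mice. The peaks of the 5 lists were merged wherever they shared 1 bp or more. A merged region was kept when a peak of every library overlapped it and when a start of a protein-coding transcript lay within 3000 bp of it, and chromosome 9 before 3.1 Mb was left out, which removed 5 regions. This left 1919 of the 18410 merged regions, called shared promoters below, near 2275 of the 21853 annotated protein-coding genes. Members were thus chosen by the presence of a peak in each list, and a promoter that had no peak in any one library cannot be among them. The 5 libraries were treated alike by this choice, which made no use of the genotype. In effect the shortest lists, TPdh-/- replicates 1 and 2, limited it most. Of 1172 coding promoter regions that missed membership by 1 library, they were the missing library at 563 and 500.

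The libraries comprised 2 from WT cells and 3 from TPdh-/- cells, which the labels call wildtype and PDH_Mutant. TPdh-/- mice carry a floxed Pdha1 gene and a CD4-Cre transgene, so that Pdha1, which encodes a subunit of the pyruvate dehydrogenase complex, is deleted in T cells of both the CD4 and the CD8 lineage. The study describes T_M culture, with no difference given between the groups, with OT-I cells, which bear a transgenic T cell receptor against an ovalbumin peptide, activated with that peptide and then kept in IL-15, and elsewhere names splenic T cells as the source. The mice used in the study were adults of both sexes. The methods call the antibody an acetyllysine antibody for histones, and the labels name K18. The paper reports more ChIPseq samples per group than the libraries used here, and describes its measurements as coming from discrete samples. Neither it nor the labels say that each of these libraries came from a separate animal, so the spread between libraries may be technical.

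Histone acetyltransferases move the acetyl group of acetyl-CoA onto lysines of the histone tails, and deacetylases remove it. Acetylated nucleosomes flank the starts of active and poised genes, while the start itself is often left without a nucleosome. Most promoters of widely expressed genes lie in CpG islands, stretches of DNA that have kept their CpG dinucleotides, whereas many promoters of genes used by only a few cell types lack them.

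Promoter sequences of 7 shared promoters are given as examples of both kinds. Hjurp, which encodes a chaperone of the centromeric histone, Flcn, which encodes the tumour suppressor folliculin, Ppp4r3b, which encodes a regulatory subunit of protein phosphatase 4, and Eif4a1, which encodes an RNA helicase of translation initiation, were among the 10 shared promoters with the highest ranks. Zap70, which encodes a kinase of T cell receptor signalling, Prf1, which encodes the pore-forming protein perforin, and Gzmb, which encodes the protease granzyme B, are genes of T cells. Each window runs from 250 bases before to 49 bases after the start, taken as base 0, which for each gene is the start that occurs most often among its protein-coding transcripts. The windows were read from the RefSeq GRCm38 assembly and are written on the strand of the gene, at chr1:88277584-88277883 (minus) for Hjurp, chr11:59809967-59810266 (minus) for Flcn, chr11:29172640-29172939 (plus) for Ppp4r3b, chr11:69672268-69672567 (minus) for Eif4a1, chr1:36761548-36761847 (plus) for Zap70, chr10:61297583-61297882 (plus) for Prf1 and chr14:56262211-56262510 (minus) for Gzmb. Capitals mark matches, on either strand, to the GC box (GGGCGG), the ETS motif (CCGGAAG), the CCAAT box (CCAAT), the TATA box (TATAAA), the cAMP response element or CRE (TGACGTCA), the ZBTB33 motif (CTCGCGAG), the RUNX motif (TGTGGTT) and the AP-1 motif (TGANTCA).
Hjurp: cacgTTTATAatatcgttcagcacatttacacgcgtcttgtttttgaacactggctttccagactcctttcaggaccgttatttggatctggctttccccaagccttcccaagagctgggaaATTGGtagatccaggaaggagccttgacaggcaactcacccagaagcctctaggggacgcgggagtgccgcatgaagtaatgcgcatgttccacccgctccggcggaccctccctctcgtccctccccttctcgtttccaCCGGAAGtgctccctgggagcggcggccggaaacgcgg
Flcn: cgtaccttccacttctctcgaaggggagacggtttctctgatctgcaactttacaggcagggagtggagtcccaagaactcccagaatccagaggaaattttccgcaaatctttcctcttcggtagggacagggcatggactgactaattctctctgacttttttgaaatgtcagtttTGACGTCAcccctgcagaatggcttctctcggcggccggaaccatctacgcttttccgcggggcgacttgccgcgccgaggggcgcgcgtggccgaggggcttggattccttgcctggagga
Ppp4r3b: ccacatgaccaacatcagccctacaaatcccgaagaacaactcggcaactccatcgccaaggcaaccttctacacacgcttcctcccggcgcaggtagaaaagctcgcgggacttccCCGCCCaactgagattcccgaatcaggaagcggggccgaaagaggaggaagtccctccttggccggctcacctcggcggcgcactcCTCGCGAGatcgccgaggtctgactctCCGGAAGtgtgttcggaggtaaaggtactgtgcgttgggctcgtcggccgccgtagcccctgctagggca
Eif4a1: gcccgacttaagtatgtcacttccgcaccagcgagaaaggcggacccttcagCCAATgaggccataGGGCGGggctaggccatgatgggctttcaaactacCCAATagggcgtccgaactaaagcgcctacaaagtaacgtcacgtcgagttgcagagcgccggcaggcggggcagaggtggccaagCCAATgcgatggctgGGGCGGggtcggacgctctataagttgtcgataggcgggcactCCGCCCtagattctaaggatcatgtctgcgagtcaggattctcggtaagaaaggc
Zap70: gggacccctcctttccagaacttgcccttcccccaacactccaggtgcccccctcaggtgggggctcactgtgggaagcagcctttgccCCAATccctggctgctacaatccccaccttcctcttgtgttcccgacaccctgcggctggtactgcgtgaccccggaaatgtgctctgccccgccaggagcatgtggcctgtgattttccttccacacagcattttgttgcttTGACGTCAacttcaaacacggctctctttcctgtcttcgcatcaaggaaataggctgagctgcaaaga
Prf1: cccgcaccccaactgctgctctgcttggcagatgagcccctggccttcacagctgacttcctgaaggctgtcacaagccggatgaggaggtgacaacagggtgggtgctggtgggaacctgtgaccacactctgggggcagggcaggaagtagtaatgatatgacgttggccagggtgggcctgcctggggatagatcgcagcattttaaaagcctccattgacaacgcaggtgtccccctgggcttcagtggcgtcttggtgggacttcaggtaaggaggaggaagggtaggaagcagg
Gzmb: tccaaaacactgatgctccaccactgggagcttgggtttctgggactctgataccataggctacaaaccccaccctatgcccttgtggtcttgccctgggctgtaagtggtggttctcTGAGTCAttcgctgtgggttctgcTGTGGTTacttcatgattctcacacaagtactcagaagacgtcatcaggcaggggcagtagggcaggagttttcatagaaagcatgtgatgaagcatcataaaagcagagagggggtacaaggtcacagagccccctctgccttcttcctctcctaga

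The first 4 windows held 20, 20, 27 and 23 CpG dinucleotides. The last 3 held 8 in Zap70, 6 in Prf1 and 2 in Gzmb. The ratio of observed to expected CpG, which corrects for base composition, was 0.840, 0.861, 0.957 and 0.912 in the first 4, and 0.341, 0.238 and 0.101 in Zap70, Prf1 and Gzmb. GC boxes were found in Ppp4r3b, where there was 1, and in Eif4a1, where there were 3 beside 3 CCAAT boxes. Flcn and Zap70 each held a CRE, at base -72 and base -18. Gzmb held an AP-1 motif at base -132 and a RUNX motif at base -108, and none of the motifs searched was found in the window of Prf1. A match of letters is a description of the sequence and not evidence that a factor was bound there.

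Over all 2275 genes with a shared promoter, the median ratio of observed to expected CpG was 0.794 (quartiles 0.569 and 0.939). It was 0.753 in the 6893 genes with a promoter peak in 1 to 4 libraries, 0.310 in the 12685 genes with none, and 0.535 in all 21853. A share of 11.8% of the genes with a shared promoter had 5 CpG dinucleotides or fewer in the window, as did 12.2% of the genes called in 1 to 4 libraries and 50.6% of those called in none. In sequence, then, shared promoters lay close to promoters called in fewer libraries and far from those never called.

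The GC box was found in 57.3% of windows of genes with a shared promoter, in 61.1% of those called in 1 to 4 libraries and in 43.9% of all windows. The ETS motif, bound by a family that includes widely expressed and T cell factors, was found in 23.5%, against 19.1% and 11.0%. ZBTB33 motifs were found in 3.16%, against 1.87% and 1.18%, and CRE in 4.09%, against 3.68% and 2.43%. The YY1 motif (AAGATGGC) was found in 5.10%, against 5.05% and 3.03%. Those for NRF1 (GCATGCGC) and E2F (TTCCCGCC) were found in 4.88% and 4.18%, against 5.96% and 4.61% of windows called in 1 to 4 libraries and 3.70% and 2.93% of all. A GC box can share bases with an E2F motif. TATA boxes were found in 7.56%, below the 12.6% of all windows, and CCAAT boxes in 36.3%, near the 38.9% of all. RUNX motifs were in 4.22%, against 4.27% of windows called in 1 to 4 libraries and 5.01% of all. AP-1 motifs were in 4.18%, against 4.44% and 6.70%, and T-box motifs (TCACACC) in 3.56%, against 3.13% and 3.82%. Windows rich in G and C hold motifs made of those letters more often, and no test was made of these shares.

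Of the 1919 shared promoters, 1761 (91.8%) contained a start of a protein-coding gene and 1874 had one within 1000 bp. One gene was assigned to 1560 of them, 2 genes to 341 and more to 18, with 4 genes at most. A pair of genes transcribed away from each other, with starts within 1000 bp, shared 165 of them (8.60%). Just inside the limit of 3000 bp were the regions near Ptgds, at 2987 bp, and Nup214, at 2889 bp. Just outside it were those near Mrpl58, at 3004 bp, and Kif21b, at 3009 bp. Ranks at these borderline regions varied between libraries, as at Ptgds, which was at the 92.9 percentile of WT replicate 1 and at the 36.4 percentile of TPdh-/- replicate 2.

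The strongest peak covered the start at 78.2% and 66.9% of shared promoters in WT replicates 1 and 2 and at 59.1%, 62.0% and 71.6% in TPdh-/- replicates 1, 2 and 3, and it lay wholly downstream at 16.9% to 30.8%. The share of shared promoters with a peak over a given base was highest 200 to 250 bp downstream, at 81.3% in WT replicate 1, 73.1% in WT replicate 2, and 68.2%, 72.9% and 77.1% in TPdh-/- replicates 1, 2 and 3. At 500 bp downstream of the start, the lowest of these shares was 54.1% and the highest 76.4%, and at 500 bp upstream they ran from 30.7% to 54.5%. The centre of the strongest peak was downstream of the start in 65.9% to 67.2% of shared promoters, with a median position 144 to 168 bp downstream. The position of the centre thus differed little among the libraries, while the edges did. Peaks of WT replicate 1 reached a median of 590 bp upstream and 862 bp downstream, and those of TPdh-/- replicate 1 reached 309 and 641 bp.

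**Figure D1:**
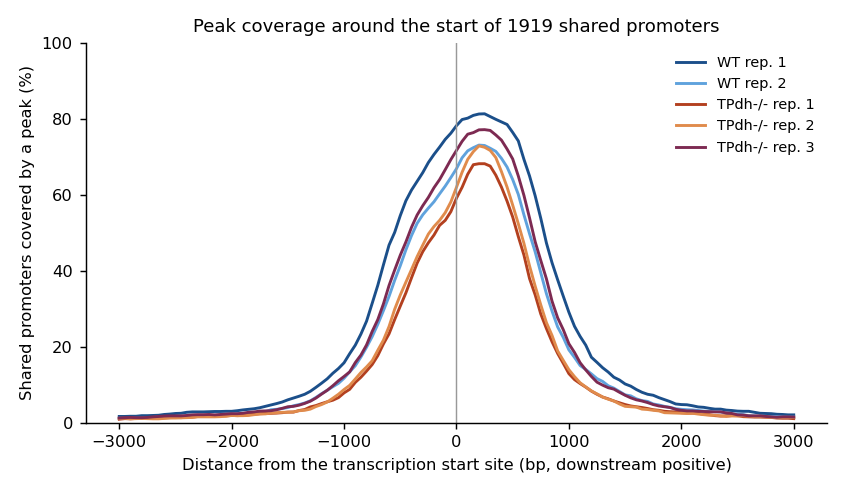
Share of the 1919 shared promoters (vertical axis, %) with a peak over each position relative to the transcription start site (horizontal axis, bp, downstream positive), with 1 line per library. All 5 lines peak 200 to 250 bp downstream, WT replicate 1 is the highest at 81.3% and TPdh-/- replicate 1 the lowest at 68.2%.

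The merged shared promoters had a median width of 1542 bp (quartiles 1320 and 1886.5, range 788 to 5730), and 54 were wider than 3000 bp. The 6419 coding promoter regions called in 1 to 4 libraries had a median of 1104 bp, and the 1175 regions called in all 5 libraries away from coding starts had a median of 1867 bp. A merged region is at least as wide as the widest of its peaks. The strongest peak of each library had median widths at shared promoters of 1456 and 1170 bp in the WT libraries 1 and 2. They were 900, 977 and 1233 bp in the TPdh-/- libraries 1, 2 and 3. TPdh-/- replicate 3 thus lay between the WT libraries, and the groups overlapped. For WT the mean of these medians was 1313 ± 202 bp (SD, n = 2), and for TPdh-/- it was 1037 ± 174 bp (SD, n = 3). Their log2 difference was 0.35, beside SDs of 0.22 and 0.24 (p = 0.4 by an exact two-sided permutation test). The 5 libraries can be divided into 2 and 3 in 10 ways, which allows no p below 0.2, so no difference over libraries could pass 0.05.

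Within each list, peaks were ranked by the −log10 q that the peak caller gave them, as a percentile from the weakest at 0 to the strongest at 100. The median percentile of shared promoters was 88.7 in WT replicate 1, 78.0 in WT replicate 2, and 67.3, 70.3 and 81.2 in TPdh-/- replicates 1, 2 and 3. Between 68.0% (TPdh-/- replicate 1) and 96.8% (WT replicate 1) of shared promoters were in the upper 50% of a list, and TPdh-/- replicate 3 again lay between the WT libraries. The WT mean was 83.4 ± 7.54 (SD, n = 2) and the TPdh-/- mean 72.9 ± 7.34 (SD, n = 3), a difference of 10.4 (p = 0.4 by the same exact test). The lists held 15962 and 8859 peaks in WT and 4920, 5419 and 9418 in TPdh-/-, and shared promoters were 12.0% and 21.7% of the peaks in WT and 39.0%, 35.4% and 20.4% in TPdh-/-. Width and percentile thus ordered the libraries as the number of peaks in the list did, from WT replicate 1 down to TPdh-/- replicate 1. When only as many of the strongest peaks were taken from each list as the shortest one holds, the difference in percentile turned to -1.33 with WT lower, and the groups no longer overlapped (p = 0.2 by the exact permutation test).

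Medians of −log10 q itself followed the same order, at 9.60 and 5.30 in WT and 3.35, 3.93 and 6.22 in TPdh-/-. The lowest value of any shared promoter in any list was 1.09. Of the 1172 coding promoter regions that missed membership by 1 library, 563 (48.0%) had no peak in TPdh-/- replicate 1 and 500 (42.7%) had none in TPdh-/- replicate 2, the shortest lists. WT replicate 2 was the missing library at 98, TPdh-/- replicate 3 at 11 and WT replicate 1 at 0.

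The fold enrichment of a peak, a ratio over the background that the peak caller estimated, differed much less between libraries. Being a ratio within each library, it does not measure the total amount of acetylation. Its median at shared promoters was 2.98 and 2.93 in WT and 2.90, 2.83 and 2.92 in TPdh-/-. Both WT libraries lay above the 3 TPdh-/- libraries, but by less than 0.01 between WT replicate 2 and TPdh-/- replicate 3. The means were 2.95 ± 0.0358 (SD, n = 2) and 2.88 ± 0.0451 (SD, n = 3), and their log2 values differed by 0.03 (p = 0.2 by the exact permutation test, the smallest possible). In each list these medians were above those of the other coding promoter peaks, which ran from 2.64 to 2.75, and above those of the regions called in all 5 libraries away from coding starts, from 2.29 to 2.46. Shared promoters had to pass the peak caller in all 5 lists, and the other coding promoters did not. The first of these contrasts is thus partly built into the choice.

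**Figure D2:**
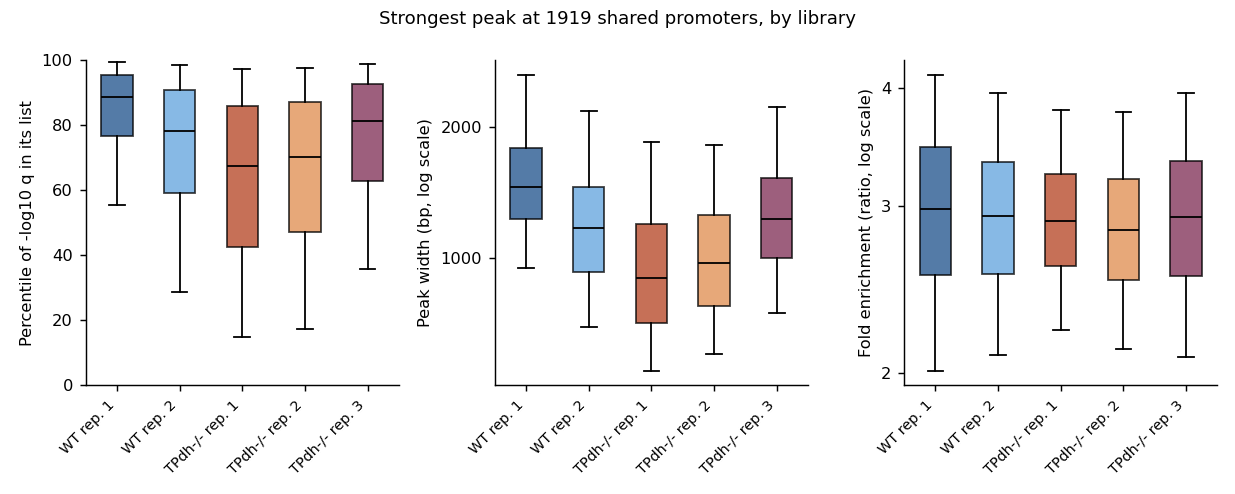
Percentile of −log10 q within the list, peak width (bp, log scale) and fold enrichment (ratio, log scale) of the strongest peak at each of the 1919 shared promoters, by library. Boxes show the median and quartiles and whiskers the 5 and 95 percentiles over promoters. Medians of percentile and width fall from WT replicate 1 (88.7 and 1456 bp) to TPdh-/- replicate 1 (67.3 and 900 bp), while medians of fold enrichment stay between 2.83 and 2.98.

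Shared promoters kept much of their order from library to library. Spearman's rho over the 1919 promoters was 0.60 to 0.77 for percentile, 0.53 to 0.70 for width and 0.74 to 0.87 for fold enrichment over the 10 pairs of libraries. The pair with the highest value in all 3 measures was WT replicate 1 and TPdh-/- replicate 3, which are of different genotypes and have the longest lists. These values describe promoters that share the libraries and are not independent. A total of 152 promoters were in the top decile of all 5 lists, 1017 were above the median of all 5, and 20 were below the median of all 5.

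Narrow shared promoters ranked higher and had larger fold enrichment than wide ones. Over the narrowest 482, from 788 to 1320 bp, the median of the mean percentile was 83.1, and over the widest 480, from 1887 to 5730 bp, it was 62.7. Median fold enrichment in the narrowest 482 was 3.62 and 3.32 in WT and 3.18, 3.17 and 3.40 in TPdh-/-. In the widest 480 it was 2.36 and 2.43 in WT and 2.52, 2.42 and 2.38 in TPdh-/-. WT replicate 1 was thus the highest of the 5 libraries at narrow promoters and the lowest at wide ones. The ratio of observed to expected CpG was similar in both sets, at 0.781 and 0.751.

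The 10 shared promoters with the highest mean percentile were those of Clk1, Hjurp, Epc1, Flcn, Ppp4r3b, Med7, Eif4a1, Zfp335, Morf4l1 and Kat5. Clk1, which encodes a kinase of splicing factors, had a region at chr1:58422883-58424267 and was at the 99.9 percentile of both WT lists and of TPdh-/- replicate 3, and at the 99.8 percentile of TPdh-/- replicates 1 and 2. Its fold enrichment was 4.59 and 4.21 in WT and 4.97, 4.26 and 4.49 in TPdh-/-, so that the groups overlapped. Epc1, Morf4l1 and Kat5 encode subunits of the same acetyltransferase complex, NuA4/TIP60, of which Kat5 is the enzyme.

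Kat5 (chr19:5609496-5610617) had a fold enrichment of 4.81 and 4.72 in WT and 4.31, 5.07 and 5.10 in TPdh-/-. Epc1 had 4.60 and 4.35 in WT and 4.56, 4.29 and 4.13 in TPdh-/-. At Morf4l1 (chr9:90113697-90114874) it was 3.81 and 3.86 in WT and 4.08, 3.96 and 3.93 in TPdh-/-, where both WT libraries were lower. Log2 differences at these 3 promoters were smaller than their standard errors, which were 0.10, 0.09 and 0.09 for Kat5, Epc1 and Morf4l1 (limma).

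Hjurp (chr1:88276399-88277904) stood apart within this group by its fold enrichment, which was 2.82 and 2.86 in WT and 2.68, 2.77 and 2.59 in TPdh-/-, although it was at the 99.7 percentile or higher in every list. Both WT libraries were higher at Hjurp by a small margin. Flcn (chr11:59809266-59810476) had 4.53 and 4.27 in WT and 4.63, 4.11 and 4.48 in TPdh-/-. The corresponding values at Ppp4r3b (chr11:29172687-29173876) were 4.45 and 4.94 in WT and 4.37, 4.42 and 4.68 in TPdh-/-. Both of these promoters had overlapping groups. At Eif4a1 (chr11:69671443-69672442), the narrowest of the 4 at 1000 bp, they were 4.75 and 4.84 in WT and 4.76, 4.50 and 5.05 in TPdh-/-, again with overlap.

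Med7, which encodes a subunit of the Mediator complex that links transcription factors to RNA polymerase II, had 3.69 and 3.83 in WT and 4.11, 3.88 and 4.03 in TPdh-/-. Zfp335, which encodes a zinc finger protein needed for T cell development, had 3.68 and 3.68 in WT and 3.62, 3.92 and 3.45 in TPdh-/-. None of the 10 passed the test between genotypes across all regions, and their adjusted p lay between 0.815 and 0.997 (limma with Benjamini-Hochberg adjustment).

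**Figure D3:**
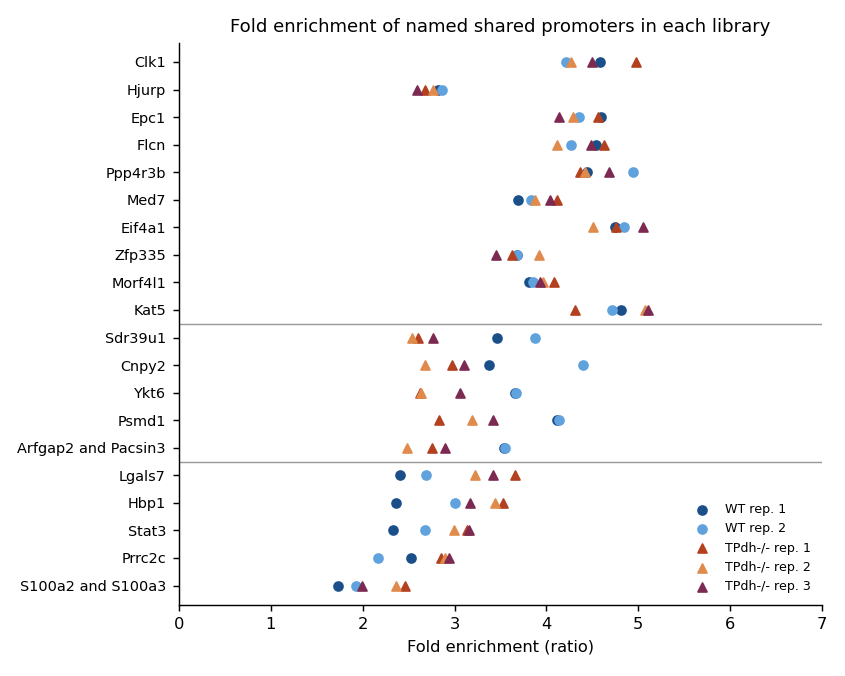
Fold enrichment (ratio) of the strongest peak in each library (circles WT, triangles TPdh-/-) at the 10 highest-ranked shared promoters, and below the lines at the 5 shared promoters with the largest difference among those where both WT libraries lay above, and below, all TPdh-/- libraries. The highest-ranked promoters overlap or nearly overlap between groups, while Sdr39u1 runs from 2.54 to 2.77 in TPdh-/- and from 3.47 to 3.88 in WT.

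The widest shared promoters were a different set. The widest, at chr1:88211435-88217164, covered 5730 bp near Ugt1a1, which encodes a bilirubin-conjugating enzyme, and had a mean percentile of 25.2. The strongest peak there spanned 5205 bp in the first WT library but 657 bp in the second. It spanned 2763, 981 and 5723 bp in the TPdh-/- libraries, so that long and short peaks were found in both groups. Chd2, which encodes a chromatin remodeller, followed with 4486 bp and a mean percentile of 42.0. The other 8 of the 10 widest were near Cnn2 and Tmem259, Creb3l4 and Slc39a1, Zfp3, Foxp1, Irgm2, Bard1, Arid5b and Xdh, and were 3837 to 4043 bp wide. Foxp1 encodes a transcription factor that keeps T cells quiescent, and its region of 3979 bp lay 206 bp from the nearest coding start, with a fold enrichment of 1.66 and 1.93 in WT and 1.95, 1.82 and 1.67 in TPdh-/-. At the other end of the ranking were Ldlrad4, Dop1b, P2ry10b, Tent5a and March6, with mean percentiles of 17.98 to 23.67. March6 was at the 0.18 percentile of WT replicate 2 and at the 46.6 percentile of WT replicate 1.

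Gene lists were counted against the 10.4% of all protein-coding genes that had a shared promoter. That background of 21853 genes includes 12685 with no promoter peak in any library. A share above it therefore does not separate a peak in every library from a peak in any library. Genes of RNA and protein synthesis made up 4 of the 5 lists with the highest shares. Splicing factors had a shared promoter in 21 of 60 genes (35.0%), RNA polymerase II and its general initiation factors in 14 of 44 (31.8%), cytosolic ribosomal proteins in 21 of 79 (26.6%), and translation initiation and elongation factors in 11 of 42 (26.2%). Proteasome subunits had 8 of 38 (21.1%), mitochondrial ribosomal proteins 15 of 78 (19.2%) and DNA replication genes 9 of 49 (18.4%). Aminoacyl-tRNA synthetases, with 3 of 20 (15.0%), and the respiratory chain, with 8 of 76 (10.5%), were nearer to the background. Replication-dependent histones had 13 of 67 (19.4%), held by 7 regions, and these genes lie in clusters.

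Among splicing factors, Tra2a was at the 99.6 and 98.4 percentiles in WT and at 96.8, 93.7 and 98.2 in TPdh-/-. The ribosomal protein gene Rpl19 had 99.7 and 99.5 in WT and 99.0, 99.2 and 99.5 in TPdh-/-. Eif3b, a subunit of an initiation factor, had 99.2 and 99.1 in WT and 92.9, 94.4 and 99.2 in TPdh-/-. Of the polymerase list, Taf4, a subunit of the initiation factor TFIID, was highest with 99.2 and 98.3 in WT and 97.5, 89.5 and 89.4 in TPdh-/-. All of these promoters were at the 89.4 percentile or higher in every list. The translation factors had the highest median of mean percentile of any list with more than 1 shared gene, 92.9, beside 75.2 over all shared promoters and 71.6 for the ribosomal proteins.

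**Figure D4:**
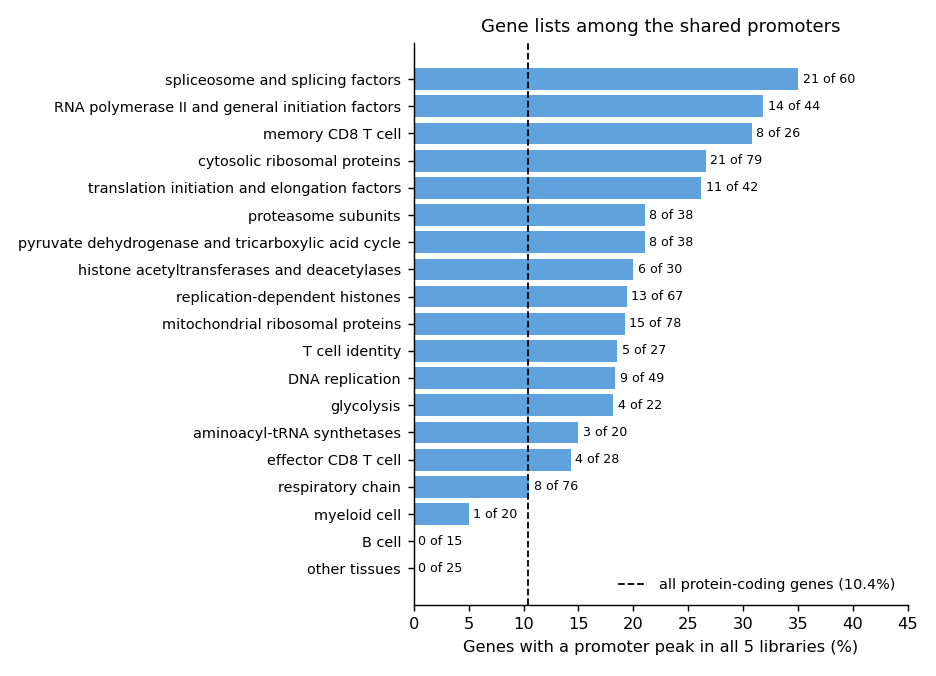
Share of the genes of each list (horizontal axis, %) with a promoter peak in all 5 libraries, with the counts beside each bar. The dashed line is the 10.4% of all protein-coding genes, and the lists run from 35.0% for splicing factors to none of 15 B cell genes and none of 25 genes of other tissues.

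Among genes of T cells, the share with a shared promoter ran from 14.3% to 30.8%. Those of T cell identity and effector function had a lower ratio of observed to expected CpG than shared promoters as a whole. Of 26 genes of memory CD8 T cells 8 (30.8%) had a shared promoter, namely Bach2, Bcl2, Bcl6, Il15ra, Il2rg, Ly6c2, S1pr1 and Zeb1. Only 6 of these 8 had their own start inside the region, and 7 were left with starts within 1000 bp. The most frequent start of Bach2 lay outside its region. That of Ly6c2, at chr15:75111970, lay outside the region at chr15:75114518-75117555, which thus does not show a peak over the Ly6c2 start. Of 27 genes of T cell identity 5 (18.5%) had one, namely Cd8b1, Lat, Ptprc, Ubash3a and Zap70, and of 28 effector genes 4 (14.3%), namely Batf, Gzmb, Klrd1 and Prf1. The median ratio of observed to expected CpG was 0.309 in the identity genes and 0.228 in the effector genes with a shared promoter, beside 0.794 over all. The memory genes, with 0.654, lay between. Over the whole lists, with or without a shared promoter, it was 0.276 for identity, 0.296 for effector and 0.392 for memory genes. The median of mean percentile was 49.3 for identity, 65.1 for effector and 70.3 for memory genes. With a minimum −log10 q of 2 in every library, 2 of the 27 identity genes and 5 of the 26 memory genes were left.

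Zap70 (chr1:36761041-36762563) was at the 99.1 and 95.6 percentiles in WT and at 78.0, 66.3 and 98.6 in TPdh-/-. Its fold enrichment was 2.99 and 2.86 in WT and 2.60, 2.40 and 2.93 in TPdh-/-, so that TPdh-/- replicate 3 overlapped WT. Ptprc, which encodes the phosphatase CD45 of all white blood cells, had 2.01 and 2.13 in WT and 2.26, 2.32 and 2.04 in TPdh-/-. Here, too, the groups overlapped, since TPdh-/- replicate 3 lay between the WT libraries. Il15ra, a chain of the receptor for the cytokine used in these cultures, had 3.45 and 3.12 in WT and 2.94, 3.15 and 3.43 in TPdh-/-.

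Prf1 (chr10:61296998-61298265) was at the 93.8 and 87.4 percentiles in WT and at 76.8, 77.8 and 81.2 in TPdh-/-. Its fold enrichment was 3.02 and 3.00 in WT and 2.93, 2.79 and 2.86 in TPdh-/-, and both WT libraries were above the others by a small margin. At Gzmb (chr14:56260980-56262974) the percentiles were 73.6 and 54.2 in WT and 40.6, 79.5 and 54.1 in TPdh-/-, and the fold enrichment was 2.17 and 2.24 in WT and 2.36, 2.68 and 2.14 in TPdh-/-. The groups overlapped at Gzmb. Batf, a transcription factor of the AP-1 family, had 2.77 and 2.73 in WT and 2.86, 2.54 and 2.60 in TPdh-/-.

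The label of the cells was set beside defining genes. Of 12 T cell genes 3 (Cd8b1, Lat and Zap70) had a shared promoter, Cd3e had a peak in all libraries but TPdh-/- replicate 1, and Cd8a had one in WT replicate 1 alone. Cd2 had none. None of 5 B cell, 5 myeloid and 7 other-tissue genes had a shared promoter. From the longer lists, none of 15 B cell genes, 1 of 20 myeloid genes and none of 25 genes of other tissues had a shared promoter. The myeloid gene was Cd68, and its region (chr11:69661768-69663677) contained a start of the neighbouring gene Mpdu1 and none of Cd68.

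Among the genes that make and use acetyl-CoA or act on histone acetylation, those of pyruvate dehydrogenase and the tricarboxylic acid cycle had a shared promoter in 8 of 38 (21.1%), namely Aco1, Dlst, Mdh2, Mpc1, Mpc2, Ogdh, Sdhc and Suclg1. The deleted gene, Pdha1, was not among them and had a promoter peak in WT replicate 1 alone. That library has the longest list, with 15962 peaks, and WT replicate 2 lacked the peak as the TPdh-/- libraries did, so its absence does not separate the genotypes. With a minimum −log10 q of 2 in every library, 5 of the 38 were left. Mpc1 and Mpc2 encode both subunits of the mitochondrial pyruvate carrier. Ogdh, which encodes the first enzyme of the 2-oxoglutarate dehydrogenase complex, had a fold enrichment of 3.09 and 3.24 in WT and 3.50, 2.97 and 3.81 in TPdh-/-. Glycolysis genes had 4 of 22 (18.2%), which were Hk1, Ldha, Pfkm and the glucose transporter Slc2a3. Ldha, which encodes a subunit of lactate dehydrogenase, had 3.38 and 3.07 in WT and 3.13, 3.31 and 3.25 in TPdh-/-. Both promoters had overlapping groups. Acetyltransferases and deacetylases had 6 of 30 (20.0%), namely Ep300, Hdac2, Kat2b, Kat5, Kat6b and Sirt6. The groups overlapped at all 4 regions of the glycolysis list and all 8 of the pyruvate dehydrogenase list. At 1 of the 6 regions of acetyltransferases and deacetylases both WT libraries lay above all TPdh-/- libraries, and at 0 they lay below. Over all 3099 regions called in every library, WT lay above at 12.6% and below at 11.6%, so these few regions show little.

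Gene families told by their names also differed. Of 55 genes named Eif, 13 (23.6%) had a shared promoter, of 75 named Ppp 17 (22.7%), and of 394 zinc finger genes named Zfp 56 (14.2%). Solute carriers named Slc had 35 of 371 (9.43%). None of 1134 olfactory receptor genes named Olfr, 331 vomeronasal genes named Vmn and 57 genes of hair keratin-associated proteins named Krtap had one. On the autosomes 8.61% (chromosome 7) to 14.0% (chromosome 19) of coding genes had a shared promoter, on chromosome X 15 of 948 (1.58%) and on chromosome Y none of 183.

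The fold enrichment of each shared promoter was compared between WT and TPdh-/- with limma on the log2 scale, fitted over all 3099 regions called in every library. A region with no peak in any one list has no value to compare. The loss of a whole peak in TPdh-/- was thus outside this comparison. No region passed an adjusted p of 0.05, which is 0% of the regions tested, and the smallest adjusted p was 0.166. At an unadjusted p under 0.05 there were 253 regions (8.16%), of which 188 were shared promoters, 133 with WT higher and 55 with WT lower. Both WT libraries lay above all 3 TPdh-/- libraries at 290 shared promoters (15.1%), where 12.6% of all regions did, and below all of them at 166 (8.65%), where 11.6% did. The median difference over shared promoters was 0.02 on the log2 scale, beside 0.0048 over all 3099 regions. With each library centred on its median over these regions, the counts were 229 above (11.9%, beside 10.1% of all regions) and 235 below (12.2%, beside 16.4%), and at an unadjusted p under 0.05 they were 92 and 78. With lists of equal length, which left 1438 shared promoters, they were 125 and 25, so that the surplus of promoters with WT higher depended on the processing in both directions.

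**Figure D5:**
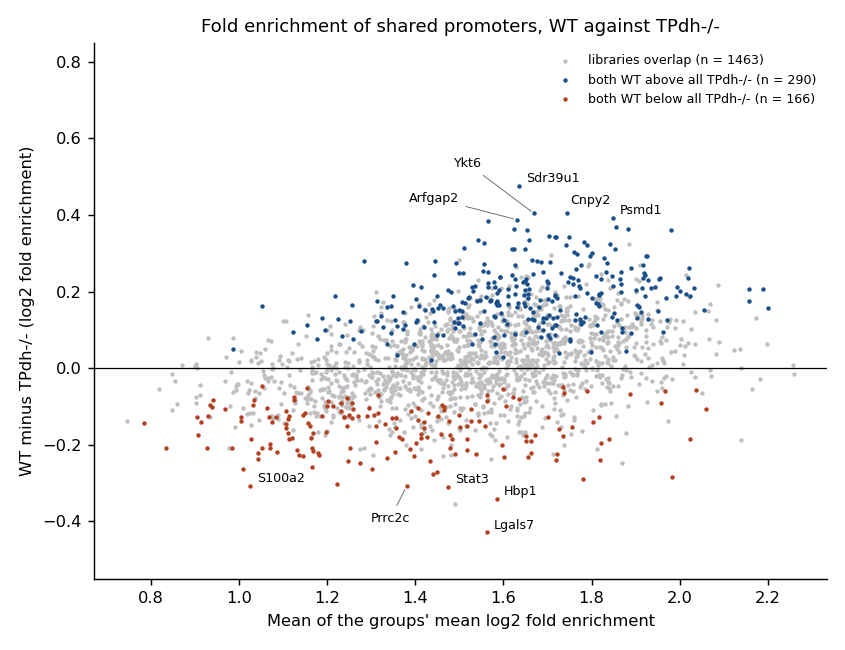
Difference in mean log2 fold enrichment, WT minus TPdh-/- (vertical axis), against the mean of both groups (horizontal axis), with 1 point per shared promoter. Blue points are the 290 promoters where both WT libraries lay above all TPdh-/- libraries and red points the 166 where both lay below. None passed the adjusted test, and differences run from -0.43 at Lgals7 to 0.48 at Sdr39u1.

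These counts differed with the width of the merged region, which is at least as wide as its widest peak and so not independent of the libraries' own peaks. Across the 1919 shared promoters, Spearman's rank correlation of peak width with fold enrichment was -0.67 in WT replicate 1, -0.49 in WT replicate 2, and -0.32, -0.41 and -0.56 in TPdh-/- replicates 1, 2 and 3. In the narrowest 482 shared promoters WT lay above at 106 (22.0%) and below at 19 (3.9%). In the widest 480 it lay above at 27 (5.6%) and below at 78 (16%). The shares over all 3099 regions were 12.6% above and 11.6% below. The split by width is a description and was not tested.

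The gene lists held few of these promoters, and every count stands beside the 12.6% and 11.6% of all regions. WT lay above at 4 of the 14 regions of mitochondrial ribosomal proteins, at 3 of 21 of cytosolic ribosomal proteins, at 3 of 21 of splicing factors and at 2 of 14 of the RNA polymerase II list, and lay below at 0 in each of these lists. In the lists of T cell identity and memory WT lay above at 0, and below at 2 of 5 and 2 of 8. Named after their values were seen, these were the regions of Lat, an adaptor of T cell receptor signalling, of Cd8b1, a chain of the CD8 co-receptor, of Bcl2, an inhibitor of apoptosis, and of S1pr1, a receptor used in leaving lymphoid tissue. At Lat the fold enrichments were 2.32 and 2.32 in WT and 2.91, 2.53 and 2.53 in TPdh-/-, and at Bcl2 they were 1.69 and 1.63 in WT and 2.06, 1.79 and 1.91 in TPdh-/-. The remaining lists held 0 to 2 such regions in each direction, and none of the lists was tested against the rest.

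The largest differences with WT above were at Sdr39u1, Cnpy2, Ykt6, Psmd1, and the region shared by Arfgap2 and Pacsin3. Sdr39u1 (chr14:55899749-55900982) encodes a member of the short-chain dehydrogenase family. Its fold enrichment was 3.47 and 3.88 in WT and 2.61, 2.54 and 2.77 in TPdh-/-, which do not overlap, and the log2 difference was 0.48 ± 0.09 (SE; limma, unadjusted p = 5.4e-05, adjusted p = 0.166). Cnpy2 had 3.38 and 4.40 in WT and 2.97, 2.68 and 3.104 in TPdh-/-. Ykt6, which encodes a membrane fusion protein of the SNARE family, had 3.65 and 3.66 in WT and 2.62, 2.63 and 3.06 in TPdh-/-. The WT libraries were close to each other at Ykt6 and far apart at Cnpy2. Psmd1, a subunit of the proteasome cap, had 4.12 and 4.13 in WT and 2.83, 3.19 and 3.42 in TPdh-/-. At the region of Arfgap2 and Pacsin3 the values were 3.53 and 3.55 in WT and 2.75, 2.49 and 2.89 in TPdh-/-. In all 5, TPdh-/- replicate 3 was the nearest of its group to WT. Adjusted p for the last 4 lay between 0.210 and 0.270 (limma).

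The largest differences with WT below were at Lgals7, Hbp1, Stat3, Prrc2c, and the region shared by S100a2 and S100a3. The region near Lgals7 (chr7:28865214-28867605) lay 985 bp from its start, and that gene encodes a galectin of squamous epithelium. The fold enrichment there was 2.41 and 2.69 in WT and 3.66, 3.22 and 3.42 in TPdh-/-, and the log2 difference was -0.43 ± 0.10 (SE; limma, adjusted p = 0.210). In WT the peak was 2392 and 1110 bp wide, and in TPdh-/- it was 742, 715 and 1121 bp. The peaks of TPdh-/- replicates 1 and 2 were thus narrower than both WT peaks, and that of replicate 3 was barely wider than the narrower WT peak. Stat3 (chr11:100938748-100940263), which encodes a transcription factor of cytokine signalling, had 2.33 and 2.68 in WT and 3.14, 2.99 and 3.16 in TPdh-/-. Hbp1, which encodes a transcriptional repressor, had 2.37 and 3.00 in WT and 3.53, 3.44 and 3.17 in TPdh-/-. Prrc2c had 2.53 and 2.16 in WT and 2.85, 2.90 and 2.94 in TPdh-/-, and the region of S100a2 and S100a3 had 1.73 and 1.93 in WT and 2.46, 2.37 and 1.99 in TPdh-/-. Adjusted p lay between 0.339 and 0.421 at these 4 (limma). All 10 promoters were chosen for their difference, so that their values describe them and do not test it.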

How the data were processed

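The authors checked reads with FastQC 0.11.9, aligned them to GRCm38/mm10 with BWA-mem 0.7.17, kept uniquely mapping reads, removed blacklisted regions with SAMtools 1.15.1 and called broad peaks with MACS2 2.2.6, library by library. No input control is named in the sources used here. The deposited lists give each peak a fold enrichment, a linear ratio, and its −log10 p and −log10 q. They hold no reads, so depth is unknown, no counting interval is given, and differential calling from reads was not repeated.

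Peaks were merged (overlap of 1 bp or more, checked with bedtools 2.31.1) and annotated with 54361 starts of protein-coding transcripts of GENCODE vM21. The peak with the highest −log10 q stood for a library at a region; only 2 shared promoters had more than 1. Libraries were compared by exact permutation over 10 splits, and regions by limma 3.58.1 (R 4.3.3) on log2 fold enrichment, with Benjamini-Hochberg adjustment over 3099 regions. The merging of peaks with the choice of members, and the limma fit, were tested on simulated data, and the permutation test was not. Python 3.11.15, numpy 2.4.6, pandas 2.3.3, pysam 0.24.0 and matplotlib 3.10.9 were used. Promoter windows of 300 bp were read from RefSeq GRCm38. The 19 gene lists are short lists of textbook members. Genes named are the 10 highest-ranked and 10 widest regions, the 5 lowest-ranked, the 5 largest differences each way where groups did not overlap, the top of each list, those nearest the distance limit, and defining genes. Not all that this selects are described. Regions, lists and tests were chosen with earlier results of these data known.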

Additional observations from a re-analysis of the deposited data

How the results depend on the processing

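Alternatives were a distance of 1000 bp, a −log10 q of at least 2, overlap at the bases shared by every library, lists of equal length, autosomes alone, 1 start per gene, all peaks of a region, centring, percentile in place of fold enrichment, and leaving out each library. With lists of equal length the difference in percentile reversed, to -1.33 with WT lower, and that in log2 fold enrichment was 0.0564, beside 0.0349 (exact permutation test, p = 0.2 for each). Shared promoters numbered 1438 under lists of equal length and 1481 under the stricter −log10 q, beside 1919, and without 1 library 1917 to 2482, the most without TPdh-/- replicate 1. Without 1 library the log2 difference in width ran from 0.188 (without WT replicate 1) to 0.509 (without WT replicate 2), that in fold enrichment from 0.0221 to 0.0470, and that in percentile from 5.09 to 16. limma called 0 regions at an adjusted p of 0.05 in each of the 13 fits, with 178 to 343 at an unadjusted p under 0.05. With the replicate number as a block over numbers 1 and 2, leaving out TPdh-/- replicate 3, the differences were 0.477 in log2 width, 14.6 in percentile and 0.0443 in log2 fold enrichment (exact permutation of signs, p = 0.5, the smallest possible), and limma called 0 regions with 310 at an unadjusted p under 0.05. Of the gene lists, respiratory chain genes fell from 8 to 5 under the stricter −log10 q and glycolysis genes from 4 to 2 with 1 start per gene. The labels do not say that the numbers pair libraries. Unknown depth limits all comparisons of rank and width, since both ordered the libraries as list length did.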
